A study of Mus musculus with 39 samples.

Results

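Trabd2b, Btbd2 and Tmem198b are 3 of the 39179 genes counted in mouse melanomas that carry a mutated Braf. They were chosen from these same data, as genes that were lower in tumours treated for 5 days with both drugs of the study, so their low level in that group is described here and not tested. All 3 passed the filter on low counts. Tumour cells were grown in culture and injected into C57BL/6 mice, and treatment began on day 7 after injection. The 39 libraries fell into 8 groups, and none of the labels names a cell line, a transgene or an engineered allele beyond the mutated Braf of the tumour. Vehicle was a mixture of DMSO, PEG400 and water. EPAT was a treatment with antagonists of EP2 and EP4, receptors of prostaglandin E2, given at 30 mpk in doses of 200 µl from a 3 mg/mL solution. Anti-PD-1, an antibody against an inhibitory receptor of T cells, was given at 200 µg per dose, and the combination was anti-PD-1 plus EPAT. Each of the 4 treatments was sampled after 2 and after 5 days, with 5 libraries per group except the anti-PD-1 group of day 2, which had 4.

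The 3 genes have separate roles. Wnt proteins are secreted signals that bind Frizzled receptors and the co-receptor LRP6, and the signal keeps beta-catenin from being destroyed so that it can switch on target genes. Trabd2b, also called Tiki2, encodes a membrane-bound metalloprotease that clips Wnt proteins at the amino end and so inactivates them. Tmem198b is the mouse relative of Tmem198, a membrane protein known to promote the phosphorylation of LRP6. Btbd2 encodes a protein with a BTB domain, a fold through which many proteins bind each other or the ubiquitin ligase scaffold CUL3, and it was described as a partner of topoisomerase I together with its relative Btbd1. Melanocytes, the cells melanoma arises from, depend on Wnt signalling during development.

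Trabd2b (ENSMUSG00000070867) lies on the plus strand at chr4:114406724-114615098 of GRCm38, spans 208375 bp and has 7 exons. No other annotated gene lies within 20 kb of it. Btbd2 (ENSMUSG00000003344, 9 exons) and Tmem198b (ENSMUSG00000047090, 5 exons) both lie on the minus strand of chromosome 10, at chr10:80642617-80657071 and chr10:128800036-128804370. RefSeq promoter windows, 250 bases before to 50 after a transcript start in GRCm38.p6, were matched for 2 of the 3 genes. They are shown with 3 short motifs in capitals, on either strand. TGACG (or CGTCA) is the core of the response element bound by cyclic AMP-dependent factors, which lie downstream of the receptors that EPAT blocks, CTTTGA (or TCAAAG) is the core bound by the TCF/LEF partners of beta-catenin, and GGGCGG (or CCGCCC) is the GC box. The windows are, in order, Btbd2 (chr10:80656445-80656744, minus strand), the first start of Tmem198b (chr10:128804398-128804697, minus strand) and a later start inside the gene (chr10:128803918-128804217, minus strand).
Btbd2: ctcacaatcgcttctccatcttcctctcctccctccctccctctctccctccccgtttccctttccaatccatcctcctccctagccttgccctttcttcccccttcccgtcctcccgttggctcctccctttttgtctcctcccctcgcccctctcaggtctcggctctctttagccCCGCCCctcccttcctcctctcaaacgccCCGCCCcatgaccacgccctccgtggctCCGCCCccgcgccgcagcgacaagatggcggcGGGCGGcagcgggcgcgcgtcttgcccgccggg
Tmem198b, first start: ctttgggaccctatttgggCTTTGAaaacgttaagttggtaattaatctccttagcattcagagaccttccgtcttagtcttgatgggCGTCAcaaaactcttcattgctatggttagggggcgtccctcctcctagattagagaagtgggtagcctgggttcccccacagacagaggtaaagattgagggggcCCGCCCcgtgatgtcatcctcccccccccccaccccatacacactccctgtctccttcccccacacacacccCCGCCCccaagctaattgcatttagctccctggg
Tmem198b, later start: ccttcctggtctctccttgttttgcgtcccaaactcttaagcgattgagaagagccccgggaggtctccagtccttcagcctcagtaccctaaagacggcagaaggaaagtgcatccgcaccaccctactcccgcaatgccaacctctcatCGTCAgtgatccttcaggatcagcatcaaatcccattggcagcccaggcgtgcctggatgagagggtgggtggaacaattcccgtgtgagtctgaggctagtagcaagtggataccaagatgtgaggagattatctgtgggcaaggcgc
The Btbd2 window held 4 GC boxes and neither of the other motifs. The first window of Tmem198b held 1 CTTTGA, 1 CGTCA and 2 GC boxes, and the later one held 1 CGTCA. The whole element TGACGTCA, which contains TGACG on both strands, was in none of the 3 windows. Of 32817 promoter windows of this length, 20.8% held TGACG, 1.79% held TGACGTCA, 16% held CTTTGA and 35.6% held GGGCGG on either strand, and a match is a description of letters only. The GC content was 67.7% for Btbd2 and 54.3% and 54.7% for Tmem198b, against a median of 52.7% over all windows.

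Tags were counted near the 3′ ends of transcripts. Libraries held 8385741 to 15558113 counts in all, with a median of 12193825. A mean of 128 tags of Trabd2b, 156 of Btbd2 and 220 of Tmem198b was counted per library, which allows a counting error of 8.85%, 8.02% and 6.74% at the mean. The fitted biological coefficient of variation was 20.6%, 21.96% and 18.2%, below the median of 25.7% over all genes tested. Before the results, 2 features of the libraries need stating. Summed lung epithelial markers were at 56.3 to 151.8 CPM in 23 libraries and at 0.253 to 1.18 CPM in the other 16. Libraries with lung transcripts numbered 3 for vehicle, 4 for anti-PD-1, 4 for EPAT and 3 for the combination on day 2, and 3, 2, 2 and 2 on day 5. Of 8 melanocyte markers, Mitf and Sox10 passed the filter, and Sox10 had a group median of at most 0.522 CPM, while Mitf, the lineage transcription factor, had group medians from 37.6 to 68.5 CPM. In bulk tumours, fewer cells of a type and less RNA per cell cannot be told apart.

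**Figure D1:**
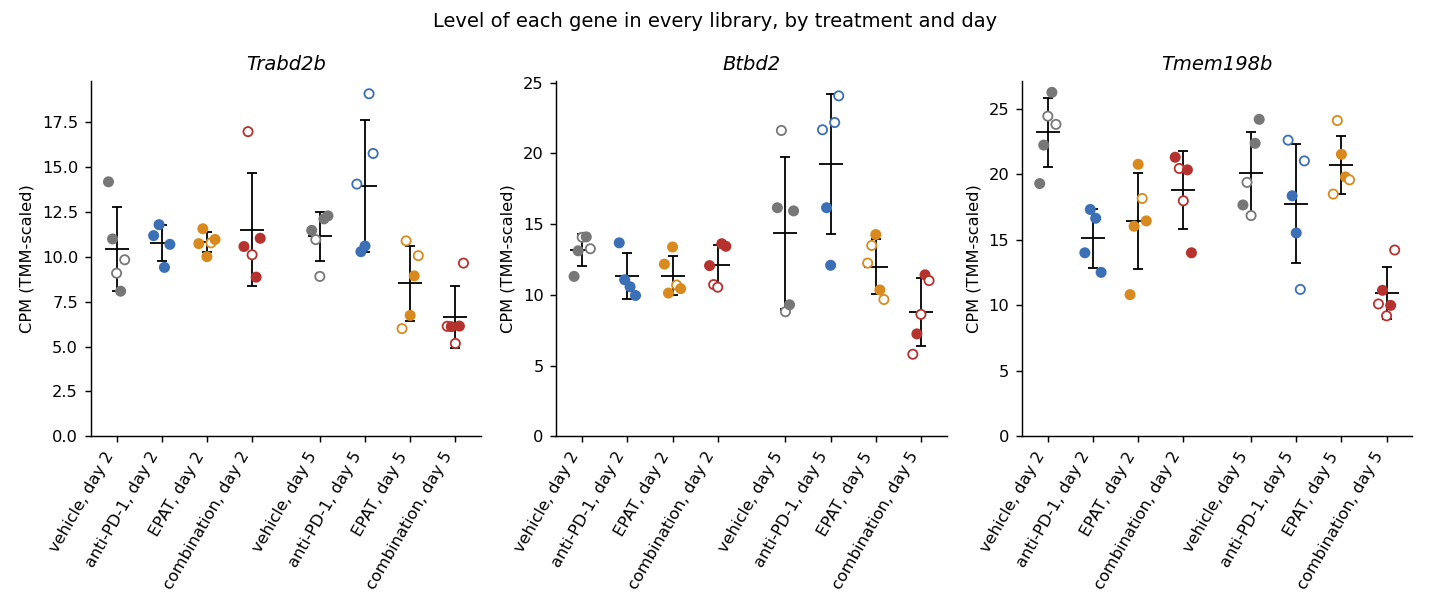
Level of Trabd2b, Btbd2 and Tmem198b in every library (vertical axis, CPM after TMM scaling) by treatment and day (horizontal axis). Points are libraries, filled where lung transcripts were present and open where not, and bars give the mean ± SD. Combination day 5 has the lowest mean of each gene, and the 3 highest anti-PD-1 day 5 libraries of Btbd2 are open points at 21.7 to 24.1 CPM.

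Trabd2b was lowest in the combination tumours of day 5 and highest in the anti-PD-1 tumours of the same day. On a scale of tags relative to library size after TMM scaling (CPM), the combination libraries on day 5 were at 6.13, 6.11, 5.17, 6.14 and 9.64. The anti-PD-1 libraries on day 5 were at 14.04, 10.3, 10.6, 19.1 and 15.7. All 5 combination libraries lay below all 5 anti-PD-1 libraries, an order found for 0.352% of the 15070 genes tested, and 3 of the anti-PD-1 libraries stood above the other 2 by over 3 CPM. Those 3 were the anti-PD-1 libraries of day 5 without lung transcripts. On the same day vehicle libraries were at 11.5, 10.95, 8.90, 12.1 and 12.3, and EPAT libraries at 6.00, 10.9, 6.73, 8.93 and 10.1. EPAT alone thus overlapped both vehicle and the combination, with 2 of its 5 libraries below all vehicle libraries.

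On day 2 the Trabd2b groups lay close together. Vehicle was at 10.4 ± 2.34 CPM (SD, n = 5), anti-PD-1 at 10.8 ± 1.01 CPM (n = 4), EPAT at 10.8 ± 0.56 CPM (n = 5) and the combination at 11.5 ± 3.15 CPM (n = 5). On day 5 the means were 11.1 ± 1.36 CPM for vehicle, 13.9 ± 3.68 for anti-PD-1, 8.52 ± 2.10 for EPAT and 6.64 ± 1.73 for the combination (n = 5 each). Ordered by mean, the groups ran from anti-PD-1 day 5 through combination day 2, vehicle day 5, EPAT day 2, anti-PD-1 day 2, vehicle day 2 and EPAT day 5 to combination day 5. No step between neighbours in this order was larger than the larger SD of the pair.

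Tmem198b had its lowest mean in the combination group of day 5, and on day 2 its means under each single drug were below that of vehicle. The combination libraries on day 5 were at 10.1, 11.1, 9.20, 10.00 and 14.2 CPM. Vehicle libraries on that day were at 17.7, 19.4, 16.8, 22.4 and 24.2 CPM, and EPAT libraries at 18.5, 24.1, 21.5, 19.8 and 19.6 CPM. All 5 combination libraries lay below every vehicle library, as for 0.916% of genes, and below every EPAT library, as for 1.23%. The anti-PD-1 libraries of day 5 were spread, at 22.6, 18.4, 15.5, 11.2 and 21.02 CPM, and 1 of them lay within the range of the combination.

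On day 2, vehicle libraries of Tmem198b were at 19.3, 22.2, 24.4, 26.3 and 23.8 CPM. The anti-PD-1 libraries were at 14.01, 17.3, 16.6 and 12.5 CPM, all 4 of them below every vehicle library, as for 1.60% of genes. EPAT libraries were at 10.8, 16.03, 20.8, 18.2 and 16.4 CPM, with 4 of 5 below every vehicle library. The combination on day 2 was at 21.3, 20.4, 17.98, 20.3 and 14.01 CPM, with 2 of 5 below every vehicle library. Group means ran from vehicle day 2 (23.2 ± 2.62 CPM) through EPAT day 5 (20.7 ± 2.19), vehicle day 5 (20.1 ± 3.12), combination day 2 (18.8 ± 2.96), anti-PD-1 day 5 (17.7 ± 4.54), EPAT day 2 (16.4 ± 3.65) and anti-PD-1 day 2 (15.1 ± 2.25, n = 4) to combination day 5 (10.9 ± 1.96), with n = 5 elsewhere. Only the last step, 4.19 CPM, was larger than the larger SD of its pair.

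Btbd2 had its highest mean under anti-PD-1 on day 5 and its lowest under the combination on the same day. The anti-PD-1 libraries on day 5 were at 21.7, 16.2, 12.1, 22.2 and 24.1 CPM. The combination libraries were at 5.81, 7.24, 8.62, 11.4 and 11.01 CPM, all 5 below all 5 anti-PD-1 libraries (again an order found for 0.352% of genes). Vehicle libraries were split, at 16.2, 21.6, 8.81, 9.30 and 15.9 CPM, so that 2 of them fell within the range of the combination. EPAT libraries were at 12.2, 13.5, 14.3, 10.3 and 9.67 CPM. Group means ran from anti-PD-1 day 5 (19.2 ± 4.96 CPM) through vehicle day 5 (14.4 ± 5.35), vehicle day 2 (13.2 ± 1.13), combination day 2 (12.1 ± 1.45), EPAT day 5 (12.003 ± 1.97), EPAT day 2 (11.4 ± 1.37) and anti-PD-1 day 2 (11.3 ± 1.64, n = 4) to combination day 5 (8.82 ± 2.40), with n = 5 elsewhere. The last step, 2.50 CPM, was the only one larger than the larger SD of its pair.

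The contrasts through which the genes were chosen are given as a description, with no p-value. Against vehicle on day 5, the fitted log2 fold change under the combination was -0.75 ± 0.20 (SE) for Trabd2b, -0.70 ± 0.20 for Btbd2 and -0.88 ± 0.17 for Tmem198b. Against anti-PD-1 on day 5 it was -1.07 ± 0.20, -1.12 ± 0.21 and -0.70 ± 0.17, and against EPAT on day 5 it was -0.36 ± 0.20, -0.44 ± 0.20 and -0.92 ± 0.17. Trabd2b and Btbd2 were thus lowest relative to anti-PD-1, while for Tmem198b the distance to vehicle and to EPAT was about the same. Between days 5 and 2 of the combination, the changes were -0.79 ± 0.20, -0.45 ± 0.20 and -0.78 ± 0.17. These 4 comparisons share the combination libraries of day 5.

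The edgeR test called 1 of the 3 genes (Tmem198b) lower than vehicle, where 0.0265% of all 15070 genes were called lower, and 2 (Trabd2b and Btbd2) lower than anti-PD-1, where 0.0199% were. It called 0 of the 3 against EPAT (0% of all genes) and 0 of the 3 between days of the combination (0.0133%). Since the genes were chosen for these contrasts, nothing is read from the counts. They were also lost with small changes: both fell to 0 of 3 within either lung class, with no filter on low counts and with only the 2 groups in the model. With 1 library left out, 0 of 3 were called against vehicle in 8 of 10 cases and against anti-PD-1 in 6 of 10. Just inside the threshold against vehicle stood Got1 (log2 fold change -0.78), an aminotransferase gene, and just outside it Pkib (1.45), an inhibitor of the cyclic AMP-dependent kinase. Against anti-PD-1, Fkbp5 (-1.11), a glucocorticoid-induced chaperone gene, stood just inside and Serpinh1 (-1.27), a collagen chaperone gene, just outside.

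The sizes depended on which libraries were set side by side. Among libraries with lung transcripts, the difference of combination and anti-PD-1 on day 5 was -0.74 for Trabd2b, -0.57 for Btbd2 and -0.65 for Tmem198b. Among those without, it was -1.22, -1.41 and -0.71. Against vehicle the values with and without lung transcripts were -0.96 and -0.50 for Trabd2b, -0.56 and -0.84 for Btbd2, and -1.01 and -0.69 for Tmem198b. All of these kept the negative sign, and the lung markers' part in the differences was not tested. With marker scores of muscle, skin, fat, lung and B cells in the model, the changes against vehicle were -0.80, -0.80 and -0.97 in the order Trabd2b, Btbd2, Tmem198b.

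**Figure D2:**
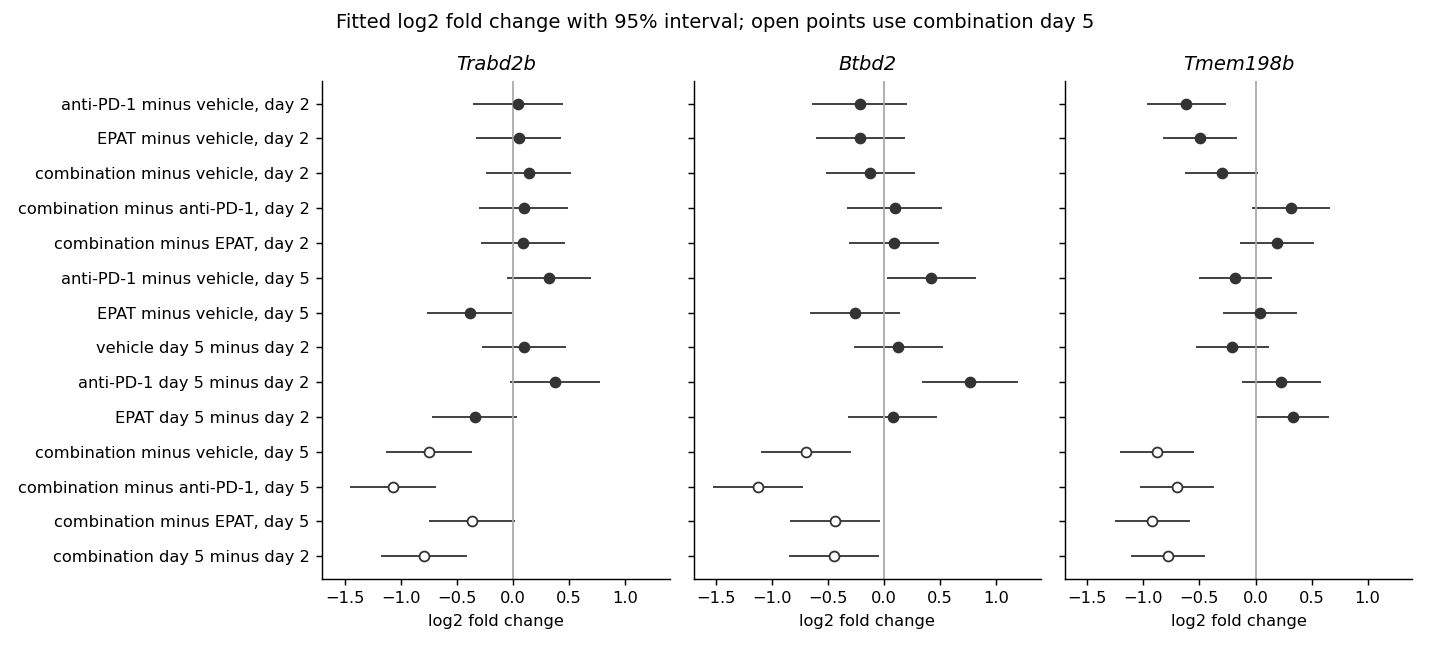
Fitted log2 fold change of each gene (horizontal axis) in 14 comparisons (vertical axis), with bars for the 95% interval. Filled points are the 10 comparisons that were tested, and open points the 4 that use the combination libraries of day 5. Tmem198b under anti-PD-1 on day 2 (-0.62) and Btbd2 under anti-PD-1 from day 2 to day 5 (0.76) lie farthest from 0 among the filled points.

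In the 10 comparisons without the combination libraries of day 5, none of the 3 genes passed the edgeR test, and neither did any other gene (0% of 15070). At an unadjusted p under 0.05, between 256 and 1541 genes stood in each of these comparisons, and DESeq2 called 0 to 85. The lowest p of a member came from Btbd2 between days 5 and 2 of anti-PD-1. The anti-PD-1 libraries of day 5 also entered a contrast that chose the genes, so this comparison is not independent of the choice. On Btbd2 the values were as follows. Its mean was 11.3 ± 1.64 CPM (SD, n = 4) on day 2 and 19.2 ± 4.96 CPM (n = 5) on day 5, a log2 fold change of 0.76 ± 0.22 (95% interval 0.34 to 1.19) that did not pass (edgeR adjusted p = 0.540). The values on day 5 were above all those of day 2 in 4 of 5 libraries. Only libraries with lung transcripts gave a value within a class, 0.29, since all 4 libraries of day 2 had them.

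Tmem198b under anti-PD-1 on day 2 was at -0.62 ± 0.18 against vehicle (95% interval -0.97 to -0.27). It did not pass (edgeR adjusted p = 0.524), with all 4 treated libraries below all 5 vehicle libraries. Limma-voom with quality weights gave -0.73 and an adjusted p of 0.0397. Under EPAT on day 2 the change was -0.50 ± 0.17 (interval -0.82 to -0.17, edgeR adjusted p = 0.697), lower than the vehicle mean in 5 of 5 libraries. Under the combination on day 2 it was -0.30 ± 0.17 (interval -0.63 to 0.02, edgeR adjusted p = 0.554). These 3 comparisons share the vehicle libraries of day 2. The combination libraries of day 2 also entered a contrast that chose the genes, so the last comparison is not independent of the choice. Within libraries with lung transcripts the values were -0.56, -0.48 and -0.27, and all 4 anti-PD-1 libraries belonged to that class. Within libraries without them, EPAT was at -0.39 and the combination at -0.31.

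On day 5 the fitted changes under the single drugs had different signs from gene to gene, and none passed. Under anti-PD-1, Btbd2 was at 0.42 ± 0.20 (interval 0.03 to 0.82, edgeR adjusted p = 0.645) and Trabd2b at 0.32 ± 0.19 (-0.05 to 0.70, edgeR adjusted p = 0.648), while Tmem198b was at -0.18 ± 0.17 (-0.51 to 0.15, edgeR adjusted p = 0.747). Among libraries without lung transcripts Btbd2 was at 0.58 and Trabd2b at 0.72. Among libraries with them, Btbd2 was at 0.01 and Trabd2b at -0.22. Under EPAT, Trabd2b was at -0.38 ± 0.19 (-0.76 to -0.01, edgeR adjusted p = 1.00), lower than the vehicle mean in 5 of 5 libraries, Btbd2 at -0.26 ± 0.20 (-0.66 to 0.14) and Tmem198b at 0.04 ± 0.17 (-0.29 to 0.37). With and without lung transcripts the EPAT values were -0.60 and -0.14 for Trabd2b, -0.18 and -0.37 for Btbd2, and -0.06 and 0.19 for Tmem198b. These comparisons share the vehicle libraries of day 5, and the anti-PD-1 or EPAT libraries of day 5, with contrasts that chose the genes. They are thus not independent of the choice. In vehicle tumours between days 5 and 2 the 3 changes were 0.10 ± 0.19 for Trabd2b, 0.12 ± 0.20 for Btbd2 and -0.21 ± 0.17 for Tmem198b, none passing. In EPAT tumours between the same days Trabd2b was at -0.34 ± 0.19 (edgeR adjusted p = 0.734), Btbd2 at 0.08 ± 0.20 and Tmem198b at 0.33 ± 0.17 (edgeR adjusted p = 0.691), the last higher than the mean of day 2 in 5 of 5 libraries. Trabd2b was at -0.46 with and -0.26 without lung transcripts there, and Tmem198b at 0.36 and 0.19. The vehicle and EPAT libraries of day 5 also entered contrasts that chose the genes. Both comparisons between days are therefore not independent of the choice either.

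Whether a single drug acted differently on the 2 days was tested as a difference of fold changes. The day 5 libraries used for it also entered the contrasts that chose the genes, so it is not independent of the choice. For anti-PD-1 the effect on day 5 exceeded that on day 2 by 0.64 ± 0.30 for Btbd2 and 0.44 ± 0.24 for Tmem198b, and for EPAT by 0.54 ± 0.24 for Tmem198b. The EPAT effect on Trabd2b was lower on day 5 by -0.44 ± 0.27. None of these passed in edgeR, where the adjusted p was 0.942 or higher for each member and 0 genes passed.

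The genes next to the members were read for the same libraries, since reads of overlapping genes may be shared. The last exon of Tmem198b overlaps that of Mmp19, a matrix metalloprotease gene on the opposite strand, by 789 bases, and Dnajc14 overlaps its other end by 309 bp. The 789 bases include the annotated 3′ ends of both Tmem198b and Mmp19, and tags were counted near 3′ ends. On the same strand as Tmem198b the annotation also places Gm47093, a noncoding gene antisense to Mmp19, which overlaps Tmem198b by 1358 bp with no exon in common and was not analysed here. The kit keeps the strand, but the strand setting of the counting was not stated, so reads from the overlaps cannot be told apart with certainty. Mmp19 was at 36.8 ± 6.42 CPM in the combination and 29.8 ± 10.1 CPM in vehicle on day 5 (log2 fold change 0.30 ± 0.34, not passing), a sign opposite to that of Tmem198b. Dnajc14 was at -0.24 ± 0.18 in that comparison. Farther along, Sarnp, an RNA-binding protein gene, was at -0.70 ± 0.25 and Ormdl2, a regulator of sphingolipid synthesis, at -0.32 ± 0.17, neither passing. The lowest combination library of day 5 was at 8.06 CPM for Sarnp, in a group at 31.8 ± 13.9 CPM. For Ormdl2 the lowest was at 7.63 CPM, in a group at 18.7 ± 6.88 CPM. Beside Btbd2, Csnk1g2, a casein kinase gene that ends 1868 bp from it on the opposite strand, was at -0.30 ± 0.17 and the kinase gene Mknk2 at -0.06 ± 0.26.

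**Figure D3:**
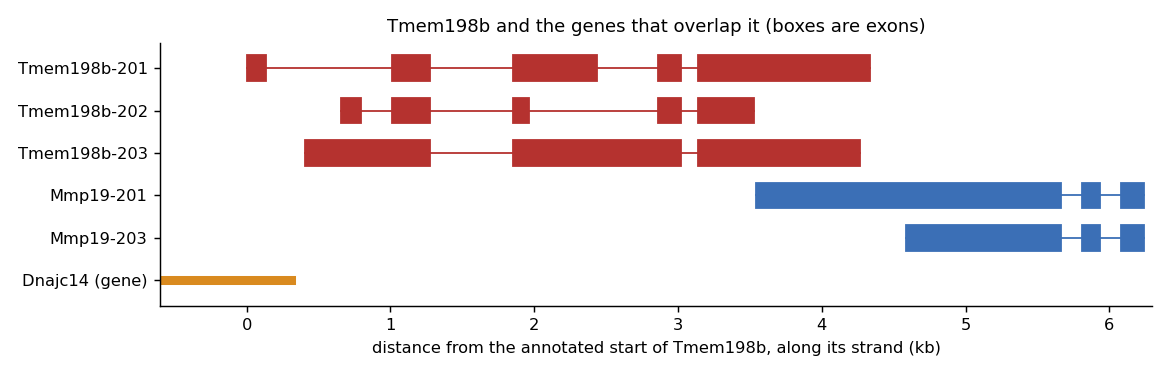
Transcripts of Tmem198b (red), the last exons of Mmp19 (blue, opposite strand) and the gene Dnajc14 (orange, opposite strand). The horizontal axis is the distance in kb from the annotated start of Tmem198b, along its strand, and boxes are exons. The last exons of Tmem198b and Mmp19 overlap by 789 bases.

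Across the 39 libraries, with group means removed, no pair of the 3 genes had a correlation that passed. Pearson's r was 0.16 for Trabd2b with Btbd2 (rho = 0.14, permutation p = 0.366), 0.06 for Trabd2b with Tmem198b (rho = 0.14, permutation p = 0.754) and 0.16 for Btbd2 with Tmem198b (rho = 0.22, permutation p = 0.402). The largest of the 3 values of r changed to 0.12 without the 2 libraries of most extreme level. Within libraries with and without lung transcripts, r was -0.35 (23 libraries) and 0.32 (15) for Trabd2b with Btbd2, -0.38 and 0.27 for Trabd2b with Tmem198b, and 0.03 and 0.35 for Btbd2 with Tmem198b. The signs of the pairs with Trabd2b thus differed between the classes, a difference that was not tested.

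Over all 39 libraries Tmem198b had its most negative correlations with scores of stroma and immune cells, and no relation passed. Each marker score averaged log2 CPM over the genes of a cell type that passed the filter, and 39 relations (3 genes by 13 scores) were tested by permuting libraries within groups. For the endothelial score r was -0.52 and rho -0.53 (permutation p = 0.00479, adjusted p = 0.163), and without the 2 farthest libraries r was -0.32. For the macrophage score r was -0.50 and rho -0.40 (permutation p = 0.00838, adjusted p = 0.163), and r was -0.29 without the 2 farthest libraries. For fibroblasts r was -0.45 (rho = -0.44) and for T cells -0.44 (rho = -0.46), with permutation p = 0.0221 and 0.0132 and adjusted p = 0.215 and 0.171. The values were larger in the libraries without lung transcripts (r = -0.77, -0.89, -0.61 and -0.76 over 15 of the 16 libraries, 1 being alone in its group, in the order endothelial, macrophage, fibroblast, T cell) than in the 23 with them (-0.28, -0.13, -0.29 and -0.24). The lung epithelium score, at r = -0.13 over all libraries, was at -0.51 within the 23 and -0.65 within the 15, so among libraries with lung transcripts it was more negative than those 4. The difference between these classes was not tested.

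The means of these scores differed between groups too, with no test made. On day 5 the combination had a higher mean than vehicle in the scores of macrophages (8.62 ± 0.47 against 8.02 ± 0.42 log2 CPM, n = 5 each), T cells (4.01 ± 0.70 against 3.02 ± 0.51), fibroblasts (8.41 ± 0.36 against 7.81 ± 0.69) and endothelium (4.596 ± 0.31 against 4.29 ± 0.55). The differences in fibroblasts and endothelium were smaller than the SD of vehicle, and no gene of these lists passed in the edgeR test of this comparison. The combination had a lower mean in the scores of the cell cycle, 6.02 ± 0.39 against 6.43 ± 0.23, and of fat, 0.13 ± 1.09 against 1.99 ± 1.03. The inflammatory monocyte score was at 5.38 ± 0.65 against 4.80 ± 0.26. The anti-PD-1 group of day 5 had macrophages at 8.45 ± 0.96, T cells at 3.755 ± 1.17, fibroblasts at 8.31 ± 1.28 and endothelium at 4.43 ± 0.81. Its Tmem198b mean was 17.7 ± 4.54 CPM, against 10.9 ± 1.96 in the combination. In the same order EPAT on day 5 was at 8.04 ± 0.54, 3.455 ± 0.69, 8.29 ± 0.70 and 4.23 ± 0.44, with Tmem198b at 20.7 ± 2.19 CPM. The part of the scores in the level of Tmem198b was not tested. Single markers gave a like picture, with r = -0.46 for the T cell gene Cd3e (permutation p = 0.0104), -0.39 for the fat hormone gene Adipoq (permutation p = 0.0257), and -0.15, -0.11 and -0.11 for Acta1 of muscle, Krt14 of skin and Sftpc of lung, none passing over 15 relations (adjusted p of 0.155 or higher).

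**Figure D4:**
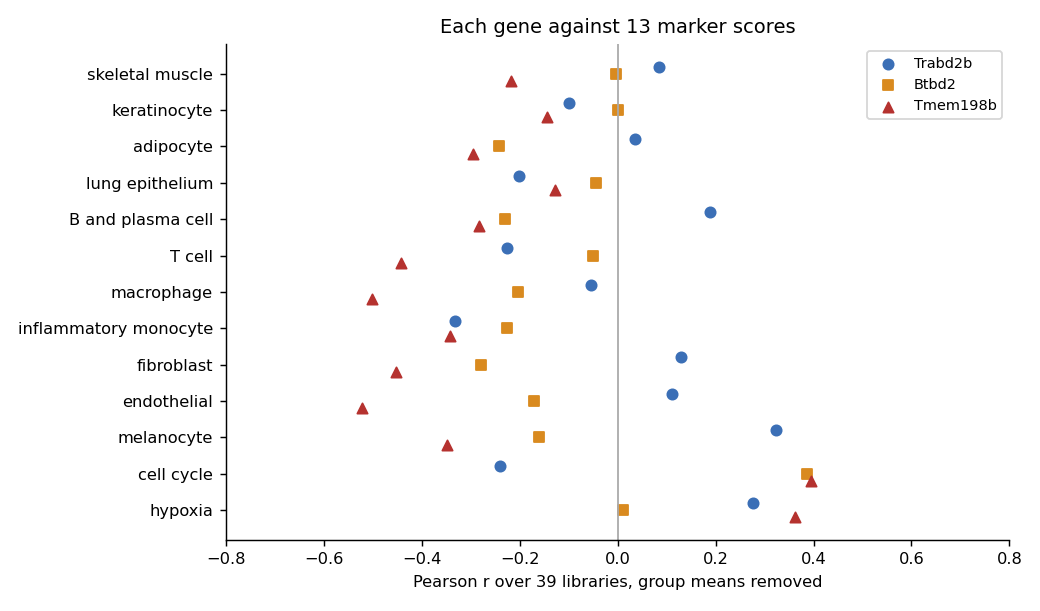
Pearson's r of each gene with 13 marker scores over 39 libraries, after removal of group means (horizontal axis), by score (vertical axis). Tmem198b (triangles) is negative for 11 of 13 scores, with the endothelial score lowest at -0.52, and none of the 39 relations passed adjustment.

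Trabd2b and Btbd2 showed weaker relations with the scores. For Trabd2b the most negative was that with inflammatory monocytes (r = -0.33, rho = -0.36, permutation p = 0.0694). Its most positive was with the melanocyte score (r = 0.32, rho = 0.20, permutation p = 0.108, adjusted p = 0.280). That r was 0.11 without the 2 farthest libraries and 0.55 without vehicle and combination of day 5. For Btbd2 the cell cycle score gave r = 0.39 and rho = 0.37 (permutation p = 0.0638, adjusted p = 0.246). This was not particular to Btbd2, as Tmem198b had r = 0.40 and rho = 0.27 with that score (permutation p = 0.0511, adjusted p = 0.246). With the hypoxia score Tmem198b had r = 0.36 and rho = 0.45, also not passing. The muscle, keratinocyte and lung scores gave values of r between -0.20 and 0.08 for Trabd2b and Btbd2 over all 39 libraries. Within libraries with and without lung transcripts, Btbd2 was at 0.47 and -0.38 with the lung score. Trabd2b was at 0.31 and -0.30 with the keratinocyte score. The other relations of these genes with the 3 scores had the same sign in both classes. For Trabd2b with the lung score that sign was positive (0.12 and 0.26), against -0.20 over all 39 libraries. Some relations outside the 3 scores also changed sign between classes. Trabd2b was at 0.46 and -0.51 with T cells and at 0.58 and -0.27 with B and plasma cells. The difference between classes was not tested.

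Btbd2 had relations that passed with its neighbour and with a technical measure, and whether the 2 are separate was not tested. With Csnk1g2, r was 0.62 and rho 0.56 (permutation p = 5.8e-04, adjusted p = 0.00348 over 6 neighbours), 0.65 without the 2 farthest libraries, 0.62 over the 23 libraries with lung transcripts and 0.83 over 15 without. It was 0.45 when vehicle and combination of day 5 were left out. Csnk1g2 is also on the list of the LRP6 core. Tmem198b with Sarnp had r = 0.36 (permutation p = 0.0397, adjusted p = 0.119) and rho = 0.43 (adjusted p = 0.0426), so that only the rank measure passed. Without the 2 farthest libraries r was 0.58 for this pair. Tmem198b with Mmp19, whose last exon it overlaps, had r = -0.36 and rho = -0.30 (permutation p = 0.0626, adjusted p = 0.125). Without the 2 farthest libraries r was -0.47 for that pair. For Btbd2 with the share of counts taken by Gm42418, a gene that overlaps ribosomal RNA sequence, r was 0.52 and rho 0.51 (permutation p = 0.00283, adjusted p = 0.0340 over 12 relations). The r was 0.41 without the 2 farthest libraries, 0.54 over libraries with lung transcripts and 0.64 over those without. Csnk1g2 also tended to be higher in libraries whose share was above the group mean, a relation that was not tested. The Gm42418 share had a median of 6.48% in anti-PD-1 libraries of day 5, 3.04% in vehicle and 3.39% in the combination. With the share as a term in the model, Btbd2 under the combination was at -0.68 against vehicle and at -1.0 against anti-PD-1 on day 5. Tmem198b had r = -0.39 with the share (permutation p = 0.0191, adjusted p = 0.115), and -0.52 without the 2 farthest libraries. Trabd2b had r = -0.02.

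**Figure D5:**
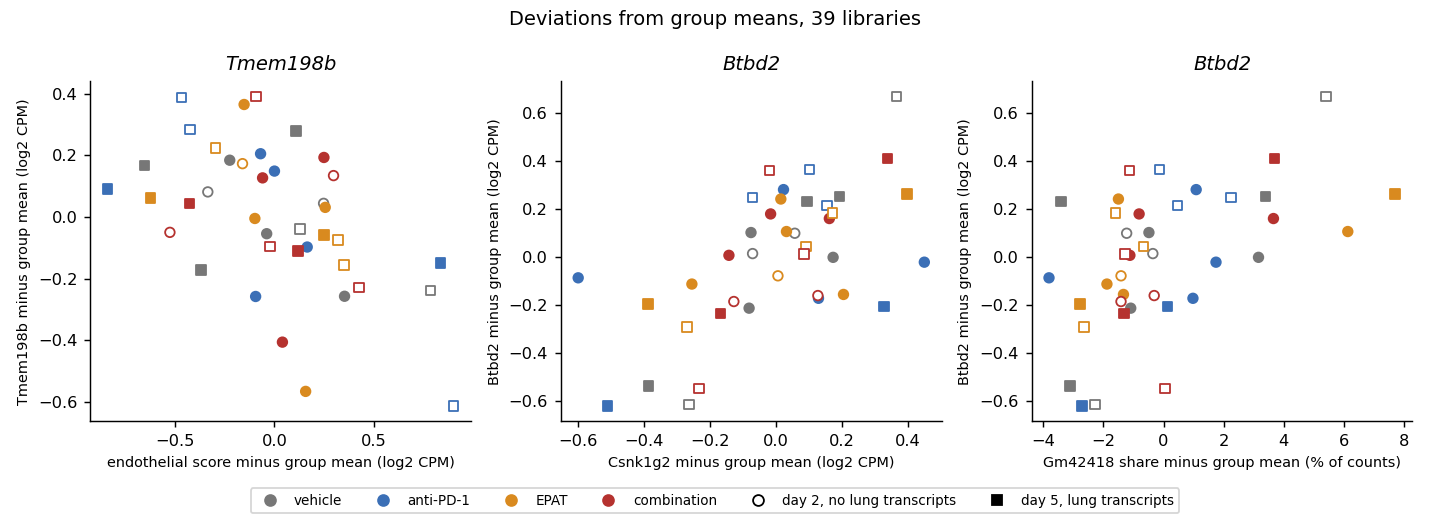
Deviation of Tmem198b and Btbd2 from their group means in log2 CPM (vertical axes) against the deviation of the endothelial score, of Csnk1g2 and of the Gm42418 share (horizontal axes) in 39 libraries. Colours are treatments, circles day 2 and squares day 5, and open symbols lack lung transcripts. The values of r are -0.52, 0.62 and 0.52 from left to right.

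The genes most like each member, by Pearson's r over 39 libraries with group means removed, were taken from 11600 genes with a mean log2 CPM of at least 1. They are a description, and the libraries share depth and tissue content. For Tmem198b the 5 highest were Gas2l1 (0.85), a linker of actin and microtubules, the ribosomal gene copy Rps3a3 (0.80), Dlgap1 (0.80), the growth factor gene Pdgfa (0.79) and Hoxa7 (0.77), and the 3 lowest were Dock10 (-0.83), the calcium channel gene Itpr1 (-0.80) and the biotin ligase gene Hlcs (-0.80). For Btbd2 the highest were Rcc2 (0.82), a mitotic regulator, Tprn (0.80), Rbm15b (0.78), the cortactin gene Cttn (0.76) and the splicing factor gene U2af1 (0.76), and the lowest were the coactivator gene Ncoa6 (-0.64), the repair gene Uvssa (-0.61) and Rpl23a-ps2 (-0.60). For Trabd2b the highest were Ppip5k1 (0.61), Ccdc66 (0.58), the muscle acetylcholine receptor gene Chrna1 (0.57), Ufl1 (0.56) and Ccdc186 (0.55), and the lowest Pdk3 (-0.65), Klrb1f (-0.64) and Itgax (-0.59), an integrin gene of dendritic cells. Rps3a3 and Rpl23a-ps2 are copies of ribosomal protein genes and may share reads with them.

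The rest of the Wnt pathway and the BTB family was read from 7 lists of genes, and no gene other than the 3 members passed in any of the 14 comparisons. The core of LRP6 phosphorylation and beta-catenin, which includes Tmem198b itself, had 10 of 15 measured genes lower and 5 higher in the combination against vehicle on day 5, with a median of -0.14 against -0.01 over all genes, and Tmem198b was the one that passed. Ctnnb1, the gene for beta-catenin, was at 334 ± 57.6 CPM against 474 ± 82.3 CPM (-0.51 ± 0.14) and the adaptor gene Dvl1 at -0.46 ± 0.14, and the co-receptor gene Lrp6 at -0.27 ± 0.13. Among receptors 9 of 13 were lower (median -0.27), with Ryk, a Wnt-binding receptor, at 96.3 ± 24.1 CPM against 155 ± 28.7 CPM (-0.69 ± 0.16) and Ror1 at -0.76 ± 0.30. Among extracellular inhibitors, which include Trabd2b, 9 of 13 were lower (median -0.31), with Notum, a secreted enzyme that strips the lipid from Wnt proteins, at 3.77 ± 2.16 CPM against 7.65 ± 3.00 CPM (-1.01 ± 0.48).

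Of 10 measured Wnt ligands 7 were lower in that comparison (median -0.21), led by Wnt10a (-0.74 ± 0.33), and both release genes, Wls and Porcn, were at -0.22 ± 0.22 and -0.08 ± 0.28. Of 9 measured target genes 6 were lower (median -0.46), with Tcf7 at -0.59 ± 0.27, Ccnd1 at -0.54 ± 0.30 and Znrf3 at -0.60 ± 0.26, while Axin2, the most used reporter of the pathway, was at 0.00 ± 0.33. Of 16 measured BTB and CUL3 genes, Btbd2 among them, 10 were lower (median -0.23), with Btbd1 at -0.44 ± 0.19, Kctd5 at -0.48 ± 0.18, Cul3 at -0.25 ± 0.16 and Btbd9 at 0.33 ± 0.13. The lowest combination library of Btbd1 was at 8.17 CPM, in a group at 20.6 ± 7.35 CPM. Top1, the gene for topoisomerase I, was at -0.19 ± 0.11. Tmem198, the relative of Tmem198b, was at 4.38 ± 2.69 CPM in the combination against 2.71 ± 1.16 CPM in vehicle (0.67 ± 0.31), so the fitted values of the 2 relatives had opposite signs. At an unadjusted edgeR p under 0.05 in this comparison, 1 ligand was lower and 1 higher. The extracellular inhibitors had 3 lower and 1 higher, the LRP6 core 5 and 1, and the receptors 4 and 0. Target genes had 2 lower and 0 higher, and BTB and CUL3 genes 5 and 1. These counts include the members, and over all 15070 genes 1399 were lower and 1086 higher. None of the genes named in this comparison other than Tmem198b, Got1 and Fkbp5 passed.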

How the data were processed

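Bulk tumour RNA was sequenced with a 3′ tag kit (QuantSeq FWD, 500 ng input), per the labels' protocols, so a tag count carries no gene length term. The authors deposited whole-number counts per Ensembl gene and log2 CPM values for 16095 genes. Per the submitters' processing notes, bcl2fastq, STAR, featureCounts and limma were used with mm10 and GRCm38. Versions and annotation release were, like the strand setting, not given in the sources used here. The labels' extraction protocol speaks of tumours isolated on day 4, which is neither time point, and groups follow each sample's time point. Symbols came from the GENCODE annotation of GRCm38, matched for 37607 identifiers.

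The counts of 15070 genes kept by filterByExpr (minimum count 10, minimum total 15) were scaled by TMM and fitted with edgeR 4.0.16 in R 4.3.3, with 1 mean per group over all 39 libraries and robust quasi-likelihood tests, 2-sided. Benjamini-Hochberg adjustment ran over all genes, and a gene passed under 0.05. SE was derived from the fold change and the F statistic (log2 fold change over root F), and 95% intervals are normal intervals from it. DESeq2 1.42.0, limma 3.58.1 and other settings were alternatives. Permutation p-values are 2-sided, from 100000 permutations within groups, with log2 CPM at a prior count of 2. The scripts were tested on simulated data.

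The members, lists and rules were chosen with earlier results of these data known. Genes named were the members, the 5 most and 3 least correlated genes of each, annotated genes within 20 kb that passed the filter, 7 relatives or partners, up to 4 genes of each list by smallest p in the comparisons with vehicle, and 5 tissue markers. The genes at the threshold of the choosing contrasts were named after their values were seen. Libraries of a group differed beyond counting noise in all 76 pairs (lowest chi-square per gene 10.7). The labels do not say that they came from separate animals, so p-values measure only the spread between these samples. In 3 libraries the first number in the title was that of another group, and 1 alternative leaves them out. It, a model with the Gm42418 share and one with the second title number as a block were added after seeing the data.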

Additional observations from a re-analysis of the deposited data

Results flagged for a closer look

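In 2 of 24 sets (3 genes in 8 groups), 1 library of the group stood far from the others, where chance gives about 1 in 20. Trabd2b was at 16.96 CPM in combination day 2 replicate 2, against 8.863 to 11.03 CPM in the other 4 libraries. Trabd2b was also at 9.644 CPM in combination day 5 replicate 5, against 5.17 to 6.14 CPM in the other 4. Btbd2 and Tmem198b had no such library in any group.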

How the results depend on the processing

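Each group's titles carry a second number, from 1 to 5, that no label explains. Same-numbered libraries of different groups had a median correlation of 0.0109 in their deviations from group means (-0.00613 for other numbers). In no comparison was every pair over 0.1. The count over it ran from 0 of 5 pairs, as between days of the combination, to 3 of 4. Those 3 of 4 were for anti-PD-1 against vehicle on day 2 and between days of anti-PD-1. Of 39 libraries, 13 were closest to their own number, and the share by chance was not computed. The fit reported does not pair libraries by number, and whether the numbers mark pairs was not settled. With this number as a replicate block (added after seeing the data), 0 members were called in any of the 14 comparisons, in place of 1 against vehicle and 2 against anti-PD-1 for the combination of day 5, genes called there went from 4 to 3 and from 3 to 0, and no fold change of a member changed sign. Of 339 alternative values of the 30 tested fold changes, leave-one-out aside, 321 kept direction and side of the threshold. The cause of the others was not tested. Tmem198b under anti-PD-1 on day 2 passed with limma-voom and quality weights (-0.73), which made 1 member called there in place of 0.

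Some values changed sign. With lung transcripts only, Trabd2b was at -0.02, -0.02 and -0.11 under anti-PD-1, EPAT and the combination against vehicle on day 2, at -0.09 for the combination against either drug on day 2, at -0.22 under anti-PD-1 on day 5 (0.32 over all libraries) and at -0.07 between days of anti-PD-1 (0.37 over all). In these libraries Btbd2 was at 0.04 under the combination on day 2 and Tmem198b at -0.06 under EPAT on day 5. Without lung transcripts, Btbd2 was at -0.01 for the combination against EPAT on day 2 and Tmem198b at 0.02 under anti-PD-1 on day 5. With limma-voom, Trabd2b was at -0.13 and -0.09 for the combination against anti-PD-1 and EPAT on day 2, Tmem198b at 0 under anti-PD-1 and -0.01 under EPAT on day 5, and Btbd2 at -0.04 between days of EPAT. With tissue scores, Tmem198b was at -0.09 under EPAT on day 5. The correlation of Trabd2b with Tmem198b was -0.16 without vehicle and combination of day 5.

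Leaving out 1 library gave ranges that crossed 0 for Trabd2b on day 2: -0.03 to 0.18 under anti-PD-1, -0.03 to 0.19 under EPAT, -0.04 to 0.28 under the combination, and -0.09 to 0.18 and -0.09 to 0.17 for the combination against anti-PD-1 and EPAT. Without combination day 2 replicate 2, the last 3 were the lowest values. Tmem198b under EPAT on day 5 ranged from -0.02 to 0.12, Btbd2 between days of vehicle from -0.07 to 0.26 and of EPAT from 0 to 0.14.

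In the choosing contrasts all 258 alternative values of the 12 fold changes stayed negative, from -1.41 to -0.25. Calls moved. Against vehicle, 1 member was called in the fit reported and 0 with no filter, within either lung class, with only the 2 groups or with limma-voom, and 2 with DESeq2. Leaving out 1 library gave 0 to 3: 3 without vehicle day 5 replicate 3, 1 without combination day 5 replicate 5, and 0 without any other. Against anti-PD-1, 2 were called, and 0 with no filter, within either lung class, with only the 2 groups or without the 3 libraries of odd title number (added after seeing the data). Leaving out 1 library gave 0 to 2, with 0 without anti-PD-1 day 5 replicate 1, 4 or 5 or combination day 5 replicate 1, 2 or 3, and 1 without combination day 5 replicate 4. Against EPAT, 0 were called, and 1 with DESeq2 size factors, DESeq2, limma-voom, the Gm42418 share as a term (added after seeing the data) or without combination day 5 replicate 5 (range 0 to 1). Between days of the combination, 0 were called, 2 with DESeq2, 1 with limma-voom, and 0 to 1 with 1 library left out, the 1 again without combination day 5 replicate 5.

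Counts over all genes moved as well. Against vehicle on day 5 the combination had 4 calls, and 0 to 76 over the alternatives, the 76 with tissue scores, and 0 to 204 with 1 library left out. Against anti-PD-1 it had 3, and 0 to 31. Against EPAT it had 0, and up to 24, and between its days 2, and up to 34. In the tested comparisons the 0 calls rose to at most 11 with any edgeR, DESeq2 or limma alternative, except for the combination against vehicle on day 2 (up to 567), against anti-PD-1 on day 2 (up to 691), against EPAT on day 2 (up to 150) and EPAT between days (up to 1168), each highest with limma-voom. The combination against vehicle on day 2 also had 99 calls with only the 2 groups, 85 with DESeq2 and 76 with lung transcripts only. It had 2 with the Gm42418 share and 1 with limma-trend. Against EPAT on day 2 the combination had 20 with DESeq2. No correlation with a marker score passed in any of the 4 alternatives run. The counting error at the mean level, 8.85%, 8.02% and 6.74%, was below the fitted variation between libraries of each gene, so the spread between libraries limited the precision more than depth did.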
